A study of Homo sapiens with 6 samples.

Results

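The plasminogen activator system was examined in cultures of RL95-2, a human cell line established from an endometrial carcinoma, with and without medium conditioned by adipocytes. The members were 9 genes, named by symbol and found in the count tables by an exact match, out of 23228 genes listed there. They were the activators PLAU and PLAT, the receptor PLAUR, the serpins SERPINE2, SERPINB2, SERPINB5 and SERPINB8, and the coagulation genes F3 and THBD. The control cells were kept for 24 h in serum-free medium made of equal parts RPMI and DMEM. In the ADP-CM cells the DMEM part was replaced by adipocyte-conditioned DMEM, taken after 48 h from mature adipocytes and passed through a syringe filter. By the study's methods, the adipocytes were isolated from visceral fat of human female patients with a body mass index in the obese range. How many donors the fat came from is not given in the sources used here. Both groups were otherwise untreated cells of 1 line, both were without serum, and each had 3 libraries. Nothing in the labels says whether the libraries came from separately grown cultures, so the p-values measure the spread between these libraries, which may be technical.

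Plasmin is the protease that dissolves fibrin and cleaves matrix proteins at the cell surface. It is made from plasminogen by urokinase (PLAU), which is held on the cell by its receptor (PLAUR), or by tissue plasminogen activator (PLAT). Serpins block the activators by forming tight complexes with them. Tissue factor (F3) starts clotting and thrombomodulin (THBD) turns thrombin towards anticoagulant activity. The system is known in the endometrium for its part in tissue breakdown and in tumors for its part in invasion.

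The libraries held 16262614 to 18363033 reads on genes, so that 1 CPM, the count scaled by library size and the TMM factors of edgeR, stood for 16.2 to 18.4 reads. Of 23228 genes 12663 passed the filter on low counts, among them 8 of the 9 members. THBD did not pass. The epithelial markers KRT8, KRT18, EPCAM, CDH1 and the Mullerian factor PAX8 were all present, with 8 of 10 epithelial and endometrial markers above 3 reads in every library and SOX17 at 0 reads in all of them. The summed CPM of that list was 4089 to 4160 in control and 3442 to 3486 in ADP-CM. KRT8 was its largest part, with means of 1842 CPM in control and 1437 CPM in ADP-CM. The list did not move as a whole. By edgeR at an adjusted p under 0.01, KRT8, KRT18, KRT19 and CDH1 were lowered. PAX8 and MUC1 (12 to 68 reads) were raised, and EPCAM and ESR1 did not pass. Of 8 adipocyte markers, ADIPOQ and LEP were at 0 reads in every library, and the sum was 10.1 to 10.7 CPM in control and 10.4 to 12.2 CPM in ADP-CM. The 8 endothelial markers, which mark cells rich in PLAT and THBD, summed to 73.5 to 78.5 and 66.5 to 75.8 CPM, nearly all of it CDH5 and ERG, with KDR, TIE1 and EMCN at 0 reads. The 8 stromal markers summed to 66.2 to 72.3 and 81.3 to 82.3 CPM, mostly COL1A1. COL1A1 was raised (log2 fold change 0.30, edgeR adjusted p = 5.94e-09), while COL3A1 and ACTA2 did not pass. COL1A2, DCN and COL6A3 had at most 2 reads in any library, and ACTA2 was lower in ADP-CM in every library. The 8 leukocyte markers summed to 7.89 to 8.75 and 10.1 to 12.01 CPM, mostly CD68. CD68 was raised (log2 fold change 0.53, edgeR adjusted p = 3.72e-05). TYROBP and AIF1 had 0 reads, and HLA-DRA had 15, 8 and 16 reads in control and 7, 6 and 2 in ADP-CM. In bulk RNA, fewer cells of a kind and less RNA per cell cannot be told apart, and the part of any such list in the values below was not tested.

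With ADP-CM, the protease inhibitor SERPINE2 rose 1.47-fold, SERPINB8 fell by 28.0%, and tissue factor (F3), SERPINB5 and urokinase (PLAU) rose by 11.7%, 8.42% and 5.47%. PLAUR, PLAT and SERPINB2 were not past the threshold. In the quasi-likelihood test of edgeR, adjusted by Benjamini-Hochberg over all 12663 tested genes, 4 of the 8 tested members were raised and 1 was lowered, with the limit set at an adjusted p of 0.01. Of all tested genes, 13.5% were raised and 13% were lowered at that limit. None of the members passed a fold change of 1.5 with that limit, by edgeR or by DESeq2, and none did at an unadjusted p under 0.05 by either tool (0 raised and 0 lowered). Over all genes, 1.14% were raised and 1.14% lowered past both limits. The groups did not overlap for 5 of the 8 members, against 45.5% of all tested genes. The median log2 fold change was 0.10 over the members and -0.0023 over all tested genes.

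**Figure D1:**
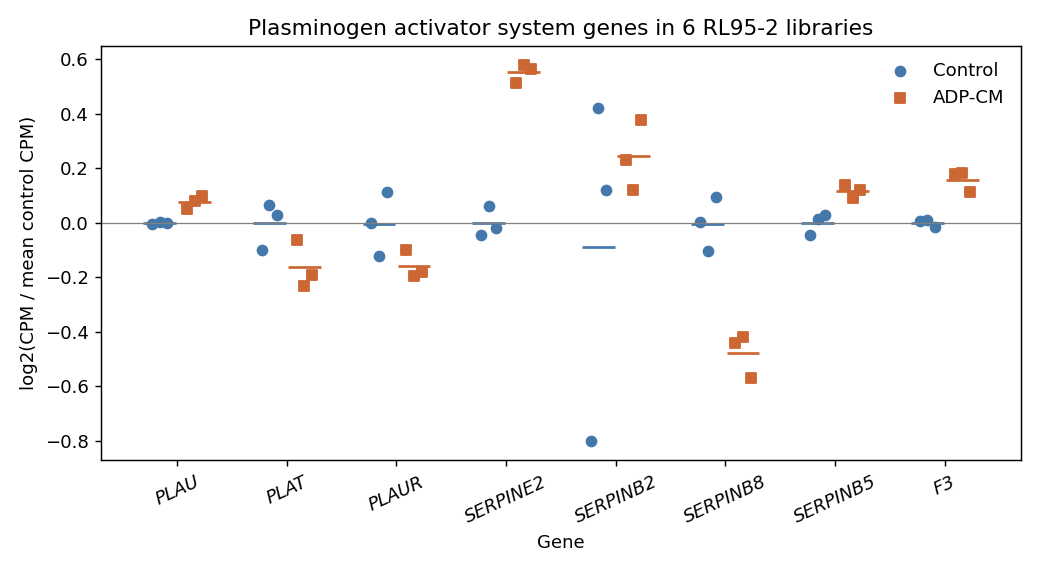
Log2 ratio of each library's CPM to the mean control CPM (vertical axis) for the 8 tested members (horizontal axis), with control libraries as circles, ADP-CM libraries as squares and short lines at the mean of the 3 log2 ratios. SERPINE2 sits far above its control libraries and SERPINB8 below them, while PLAU, SERPINB5 and F3 are shifted slightly up and PLAT, PLAUR and SERPINB2 overlap.

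The promoters of the members that passed the test are shown to let the starting sequences of raised and lowered genes be compared. RefSeq promoter windows, from 250 bases before to 50 bases after a gene start on GRCh38.p14, matched 7 of the 9 members, PLAU and SERPINE2 with 2 windows each. PLAT and THBD had no entry. Each window was searched on both strands for 4 motifs, AP-1 (TGANTCA), STAT (TTCNNNGAA), Sp1 (GGGCGG) and the TATA box (TATAAA), and matches are in capitals in the sequences below, which run 5′ to 3′ on the gene's strand.
F3, chr1:94541710-94542009, minus strand: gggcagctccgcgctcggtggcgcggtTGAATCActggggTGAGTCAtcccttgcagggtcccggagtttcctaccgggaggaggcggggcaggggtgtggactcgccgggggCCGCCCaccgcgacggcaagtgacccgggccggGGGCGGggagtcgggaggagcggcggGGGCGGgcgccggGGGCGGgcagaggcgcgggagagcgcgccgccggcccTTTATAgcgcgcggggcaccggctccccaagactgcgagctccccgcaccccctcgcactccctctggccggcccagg
SERPINB5, chr18:63476708-63477007, plus strand: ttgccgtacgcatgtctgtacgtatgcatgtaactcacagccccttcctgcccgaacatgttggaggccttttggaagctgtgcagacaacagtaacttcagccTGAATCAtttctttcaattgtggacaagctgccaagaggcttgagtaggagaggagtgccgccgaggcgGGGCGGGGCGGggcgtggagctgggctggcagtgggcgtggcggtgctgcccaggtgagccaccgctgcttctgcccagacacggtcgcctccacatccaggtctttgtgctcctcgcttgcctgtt
SERPINB8, chr18:63969831-63970130, plus strand: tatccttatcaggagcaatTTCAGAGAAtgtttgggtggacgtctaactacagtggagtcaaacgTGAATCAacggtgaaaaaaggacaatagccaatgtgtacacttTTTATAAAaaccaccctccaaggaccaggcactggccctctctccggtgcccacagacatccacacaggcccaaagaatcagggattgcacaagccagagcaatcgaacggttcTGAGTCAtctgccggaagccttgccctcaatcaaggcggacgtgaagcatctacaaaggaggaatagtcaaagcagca
PLAU, chr10:73910882-73911181, plus strand: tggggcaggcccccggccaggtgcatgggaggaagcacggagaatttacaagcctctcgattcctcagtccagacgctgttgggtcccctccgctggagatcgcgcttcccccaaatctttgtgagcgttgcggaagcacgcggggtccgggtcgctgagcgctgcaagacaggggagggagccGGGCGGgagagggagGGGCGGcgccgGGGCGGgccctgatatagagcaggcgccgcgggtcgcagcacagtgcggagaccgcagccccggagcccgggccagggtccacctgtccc
SERPINE2, chr2:224031429-224031728, minus strand: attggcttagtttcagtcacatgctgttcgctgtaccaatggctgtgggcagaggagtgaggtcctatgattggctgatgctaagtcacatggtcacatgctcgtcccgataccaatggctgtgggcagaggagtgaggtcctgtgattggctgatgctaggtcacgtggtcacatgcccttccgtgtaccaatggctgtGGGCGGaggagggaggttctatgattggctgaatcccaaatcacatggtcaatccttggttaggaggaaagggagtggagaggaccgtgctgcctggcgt
SERPINE2, chr2:224038591-224038890, minus strand: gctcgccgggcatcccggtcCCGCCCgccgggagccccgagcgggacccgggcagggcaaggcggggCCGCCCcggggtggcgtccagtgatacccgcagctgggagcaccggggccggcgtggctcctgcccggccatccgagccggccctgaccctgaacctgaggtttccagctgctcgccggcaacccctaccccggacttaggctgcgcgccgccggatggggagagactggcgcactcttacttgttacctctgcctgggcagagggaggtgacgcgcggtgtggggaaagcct

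The AP-1 letters were found in the single windows of 5 of the 7 matched members, F3, SERPINB5, SERPINB8, PLAUR and SERPINB2. No window of PLAU or SERPINE2 held them. Over all 35116 promoter windows, counted by window and not by gene, the share was 7.71%. F3 and SERPINB8 held 2 such matches each. In F3 they lay at -223 and -210 from the gene start, and in SERPINB8 at -185 and -28. The genes that shared these letters went both ways, with F3 and SERPINB5 raised, SERPINB8 lowered, and PLAUR and SERPINB2 not past the threshold. The STAT letters were found only in the SERPINB8 window, at -231, and in 7.66% of all windows. Sp1 letters were found in F3 (4 matches), SERPINB5 (2 overlapping matches), 1 window of PLAU (3 matches) and both windows of SERPINE2, and in 45% of all windows. TATA box letters were found in SERPINB2, F3 and SERPINB8, where matches on both strands overlap, and in 11.5% of all windows. The match lay at -30 on the gene's strand in SERPINB2 and at -28 on the opposite strand in F3. In SERPINB8 the matches lay at -142 (opposite strand) and -140 (gene's strand). The other PLAU window, at chr10:73910360-73910659, held none of the 4 motifs. A match describes the letters in the window and does not show that a factor binds there.

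PLAU (chromosome 10, 75668935 to 75677254 on GRCh37, the build that hg19 names) encodes urokinase, the activator that acts at the cell surface. Its level was 735.2, 738.1 and 737.8 CPM in control replicates 1, 2 and 3, and 763.0, 780.0 and 788.9 CPM in the ADP-CM replicates. Every ADP-CM library lay above every control library. The means were 737.0 ± 1.62 and 777.3 ± 13.1 CPM (SD, n = 3 each). On the log2 scale the difference was 0.08 (SE 0.019, 95% interval 0.04 to 0.11, edgeR adjusted p = 0.000695). In the annotation 31% of the exonic bases of PLAU lie opposite the antisense gene C10orf55. The tables held 100, 104 and 110 reads of C10orf55 in control and 87, 105 and 104 in ADP-CM, against at least 11933 reads of PLAU in any library, and the strand setting of the counting is not given in the sources used here.

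PLAT (chromosome 8, 42032236 to 42065227), the tissue-type activator that binds fibrin, was far lower. It had 26.6, 29.8 and 29.0 CPM in control and 27.3, 24.3 and 24.9 CPM in ADP-CM. ADP-CM replicate 1 lay within the control range and the other two below it. The log2 fold change was -0.16 (95% interval -0.28 to -0.04, edgeR adjusted p = 0.0297), short of the limit of 0.01. In the 13 alternative fits, which changed the scaling, the filter, the tool or the libraries used, the adjusted p of PLAT lay between 0.0105 and 0.155 (edgeR or DESeq2).

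PLAUR (chromosome 19, 44150247 to 44174699) encodes the receptor that keeps urokinase at the cell surface. It was read 92, 88 and 105 times in control and 96, 91 and 92 times in ADP-CM. At this scale the groups overlapped, with 5.67 ± 0.464 CPM in control and 5.09 ± 0.186 CPM in ADP-CM (SD, n = 3 each). The log2 fold change was -0.16 (95% interval -0.42 to 0.10, edgeR adjusted p = 0.366), so that a difference was not detectable at this depth.

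SERPINE2 (chromosome 2, 224839762 to 224904035), protease nexin-1, is a secreted and matrix-bound inhibitor of thrombin, urokinase and other trypsin-like proteases. It had 122.9, 132.2 and 124.9 CPM in control and 181.0, 189.4 and 187.5 CPM in ADP-CM. The lowest ADP-CM library was well above the highest control library. The means were 126.7 ± 4.88 and 186.0 ± 4.43 CPM (SD, n = 3 each). This was a log2 fold change of 0.55 (SE 0.030, edgeR adjusted p = 1.51e-24). The size of this change exceeded that of 95.4% of all tested genes. For SERPINB8, F3, SERPINB5 and PLAU that share was 93.45%, 66.03%, 53.64% and 38.69%. With each library left out in turn the log2 fold change of SERPINE2 stayed between 0.53 and 0.58, with an edgeR adjusted p of at most 4.61e-18.

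SERPINB2 (chromosome 18, 61538926 to 61571122), plasminogen activator inhibitor type 2, was near the lower limit of the measurement. It had 7, 17 and 14 reads in control and 16, 15 and 18 in ADP-CM. After scaling to CPM, every ADP-CM library lay within the control range. The log2 fold change was 0.24 (95% interval -0.43 to 0.90, edgeR adjusted p = 0.612), and it was -0.03 without control replicate 1, so that a difference was not detectable at this depth. In the annotation 20% of its exonic bases are shared with an unnamed gene on the same strand.

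SERPINB8 (chromosome 18, 61637263 to 61687013) encodes an intracellular serpin known as an inhibitor of the protein-processing protease furin. Its level was 21.3, 19.7 and 22.6 CPM in control and 15.6, 15.9 and 14.3 CPM in ADP-CM. All ADP-CM libraries were below all control libraries. The means were 21.2 ± 1.46 and 15.3 ± 0.846 CPM (SD, n = 3 each), which gave a log2 fold change of -0.47 (SE 0.072, edgeR adjusted p = 1.75e-07). It was the only tested member lowered past the threshold, and the call held in all 13 alternative fits, where its log2 fold change ran from -0.53 to -0.42. HMSD, which shares 6.42% of its exonic bases on the same strand, had 0 reads in every library.

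SERPINB5 (chromosome 18, 61144191 to 61172318), maspin, belongs to the same family but does not inhibit proteases in the usual serpin way, and is known as an epithelial marker. It had 136.0, 141.8 and 143.0 CPM in control and 154.5, 149.4 and 152.4 CPM in ADP-CM. The groups did not overlap. The means were 140.3 ± 3.75 and 152.1 ± 2.55 CPM (SD, n = 3 each), 0.12 apart on the log2 scale (SE 0.030, edgeR adjusted p = 0.00112). The call was lost without control replicate 1 (log2 fold change 0.09, edgeR adjusted p = 0.0234) and without ADP-CM replicate 1 (log2 fold change 0.10, edgeR adjusted p = 0.0159), and the lowest adjusted p of any alternative was 0.000587.

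F3 (chromosome 1, 94994729 to 95007315), tissue factor, had 135.8, 136.3 and 133.8 CPM in control and 153.4, 153.8 and 146.3 CPM in ADP-CM. Every ADP-CM library was above every control library. The means were 135.3 ± 1.34 and 151.1 ± 4.20 CPM (SD, n = 3 each). Their log2 fold change was 0.16 (SE 0.030, edgeR adjusted p = 1.30e-05), and F3 kept its call in all 13 alternative fits. THBD (chromosome 20, 23026270 to 23030309), whose product thrombomodulin is best known from endothelium, was read 5, 2 and 3 times in control and 0, 2 and 4 times in ADP-CM. These counts overlap and lie near 3 reads, taken here as the limit of detection, which is 0.163 to 0.185 CPM. Such limits cover counting error only, because the reads carry no molecular identifiers. Without the filter THBD had a log2 fold change of -0.82 with a 95% interval of -2.49 to 0.84, so that a difference was not detectable.

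Levels of different genes were compared per kilobase of the canonical transcript. All annotated exons of SERPINE2 cover 8957 bases against 2226 in its canonical transcript, and those of F3 2886 against 2298. The order of genes such as SERPINE2 and F3, and the ratios between genes, therefore depend on this choice of length. PLAU was the most abundant member at 314.6 ± 0.693 CPM per kb in control. F3 (58.9 ± 0.584), SERPINE2 (56.9 ± 2.19) and SERPINB5 (54.2 ± 1.45 CPM per kb) followed, and the control libraries of F3 and SERPINE2 overlapped, as did those of SERPINE2 and SERPINB5. With ADP-CM, SERPINE2 stood at 83.5 ± 1.99 CPM per kb and F3 at 65.8 ± 1.83 CPM per kb, and their libraries no longer overlapped. PLAT came next in control with 9.30 ± 0.559 CPM per kb, followed by SERPINB8 with 6.38 ± 0.438 and PLAUR with 4.15 ± 0.339 CPM per kb. SERPINB2 (0.395 ± 0.154) and THBD (0.0497 ± 0.0241 CPM per kb, SD, n = 3 for each value) were at the bottom. In ADP-CM, SERPINB8 (4.60 ± 0.255 CPM per kb) remained above PLAUR (3.72 ± 0.136 CPM per kb). PLAU made up 97.1% ± 0.162 of the summed activator level in control and 97.55% ± 0.185 in ADP-CM, and it exceeded PLAUR 76.2 ± 6.28 and 89.3 ± 4.56 times per kilobase (SD, n = 3 each).

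**Figure D2:**
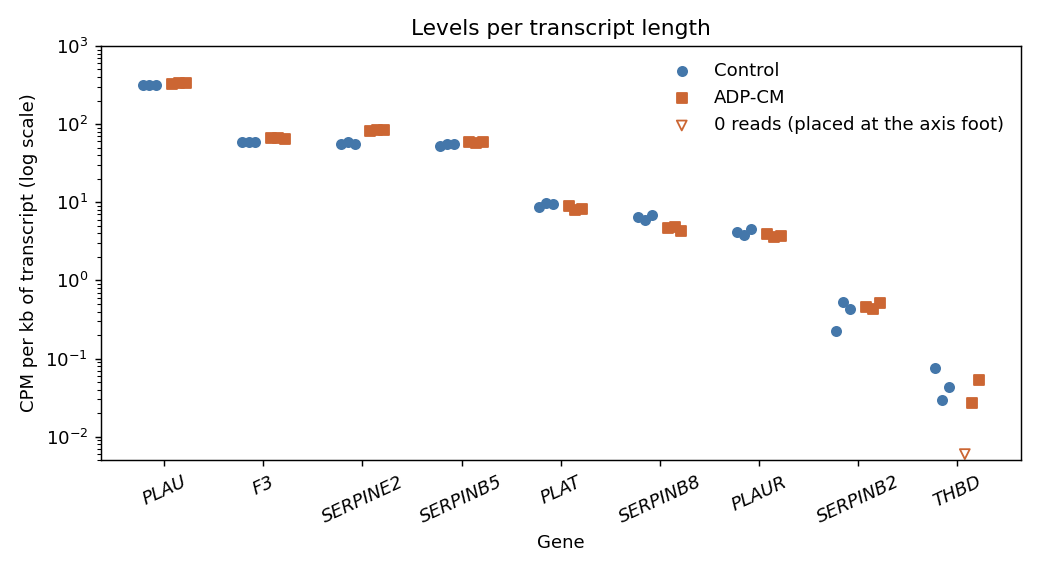
CPM per kilobase of the canonical transcript (vertical axis, log scale) for the 9 members (horizontal axis), with one point per library, control as circles and ADP-CM as squares, and an open triangle where a library had 0 reads. The levels span from over 300 CPM per kb for PLAU to below 0.1 CPM per kb for THBD.

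Per kilobase, the activators PLAU and PLAT together had 322.5, 324.7 and 324.4 CPM per kb in control and 334.6, 340.8 and 344.8 CPM per kb in ADP-CM. The level of PLAU divided by that of SERPINE2, the most abundant member among the protease inhibitors, was 5.68, 5.31 and 5.61 in control and 4.006, 3.912 and 3.996 in ADP-CM. The groups did not overlap in this ratio, which was 5.53 ± 0.201 and 3.97 ± 0.0516 (SD, n = 3 each). It was chosen after the single values were seen, depends in size on the transcript lengths used, and is given without a test. Transcript levels do not give protein or protease activity.

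Of 36 other plasminogen activation genes, all were in the tables and 19 were tested. With the same test and limit 6 were raised, 6 were lowered and 7 did not pass, beside 13.5% raised and 13% lowered of all tested genes. Their median log2 fold change was -0.0085, against -0.0023 over all tested genes. Among the plasminogen receptors, S100A10 and ANXA2, which form a complex that binds plasminogen and PLAT at the cell surface, both fell. S100A10 had 385.0, 388.5 and 391.6 CPM in control and 305.2, 296.9 and 294.6 CPM in ADP-CM, a log2 fold change of -0.38 (edgeR adjusted p = 1.66e-22). ANXA2 had 671.2, 670.7 and 660.0 CPM in control and 580.6, 584.0 and 581.1 CPM in ADP-CM, a log2 fold change of -0.20 (edgeR adjusted p = 2.38e-13). The receptor PLGRKT, listed under its older symbol C9orf46, fell by 0.43 on the log2 scale, and its edgeR adjusted p of 0.000478 became 0.0102 without control replicate 1, in a range over the alternatives of 6.49e-05 to 0.0102. ENO1, the enolase that also binds plasminogen at the surface, had a log2 fold change of 0.01 and did not pass.
Of the proteases that activate pro-urokinase, the membrane protease ST14 (matriptase) fell from 260.4 ± 2.20 CPM in control to 196.0 ± 10.95 CPM in ADP-CM (SD, n = 3 each), by 0.41 on the log2 scale (edgeR adjusted p = 5.30e-20). The lysosomal protease CTSB had a log2 fold change of 0.06 (edgeR adjusted p = 0.00111), with an adjusted p of 0.0111 without control replicate 3 or ADP-CM replicate 1 and of 0.000261 at its lowest (DESeq2). Among the endocytic receptors that clear activator and inhibitor complexes, SORL1 fell from 101.2 ± 2.04 CPM in control to 77.7 ± 1.58 CPM in ADP-CM (SD, n = 3 each), by 0.38 on the log2 scale (edgeR adjusted p = 2.54e-14). LRP1, raised with a log2 fold change of 0.22, lost its call with DESeq2 and without control replicate 3, ADP-CM replicate 1 or ADP-CM replicate 3.
Of these 19 genes, 1 was raised past a fold change of 1.5 by edgeR and by DESeq2, beside 1.14% of all tested genes by edgeR. This was ITGA5, the fibronectin receptor subunit. It had 17, 11 and 17 reads in control and 43, 37 and 30 in ADP-CM, which gave a log2 fold change of 1.16 (edgeR adjusted p = 0.000287). Its partner subunit ITGB1, ITGA3 and the matrix protein THBS1 had log2 fold changes of 0.09, 0.10 and 0.11, each raised past the threshold. The sixth lowered gene of the list was the lysosomal protease CTSL, whose log2 fold change of -0.10 lost its call with DESeq2 and in 4 of the 6 fits that left out a library. No gene of the list was lowered past a fold change of 1.5 by edgeR or DESeq2, and 1, the neuronal serpin SERPINI1, was at an unadjusted p under 0.05 by edgeR (0 by DESeq2). PLG, plasminogen itself, had 0 reads in every library, as did MMP2, HGF, LPA, HPN, CPB2 and SERPINA5.

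**Figure D3:**
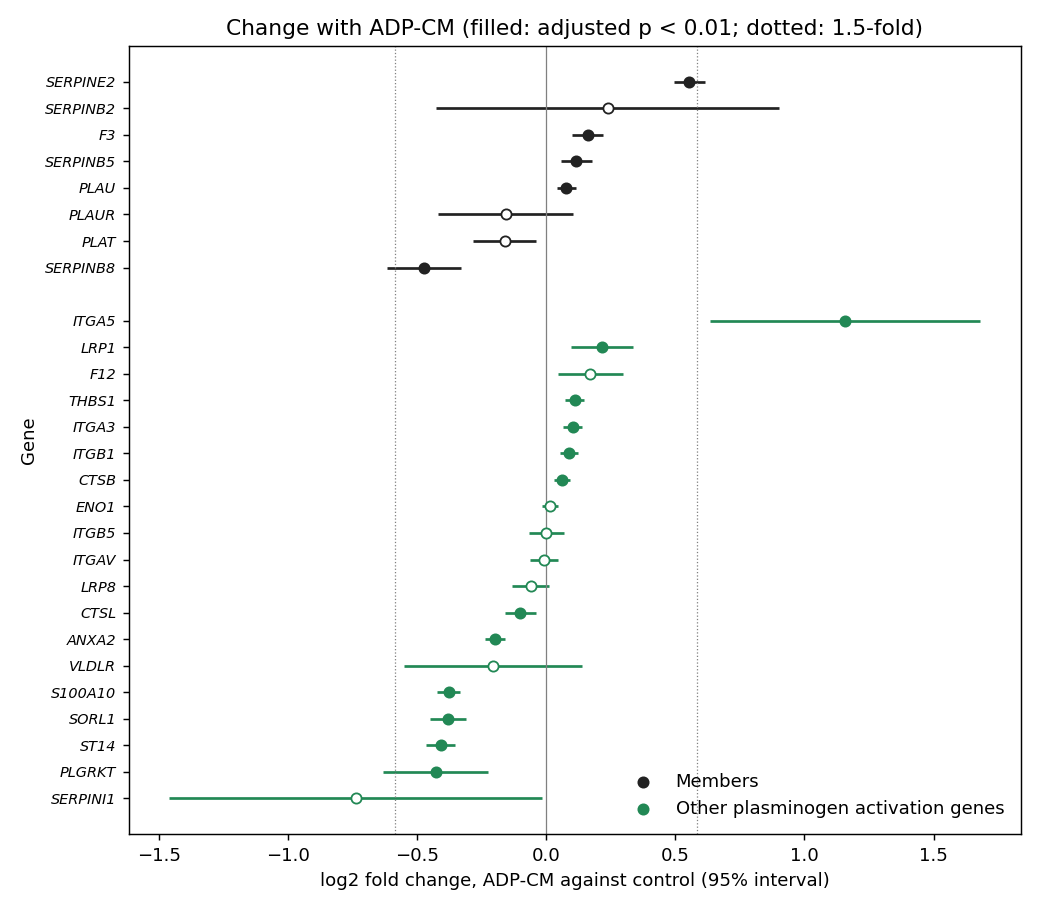
Log2 fold change of ADP-CM against control with its 95% interval (horizontal axis) for the 8 tested members (black) and the 19 tested other plasminogen activation genes (green), with filled points at an adjusted p under 0.01 and dotted lines at a fold change of 1.5 in either direction. ITGA5 lies to the right of the upper dotted line, and all members lie between the lines at their estimates.

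Of 32 other coagulation genes 13 were tested, of which edgeR called 0 raised and 1 lowered, beside the 13.5% raised and 13% lowered of all tested genes. At an unadjusted p under 0.05, 4 were higher (LMAN1, MCFD2, PROCR and TFPI) and 2 lower (TFPI2 and GAS6) by edgeR, and 2 were higher and 1 lower by DESeq2, which called 0 raised and 1 lowered. The lowered gene was TFPI2, tissue factor pathway inhibitor 2, a secreted inhibitor of plasmin and of the tissue factor complex. It had 496.6, 489.6 and 478.4 CPM in control and 456.6, 444.2 and 439.7 CPM in ADP-CM. Its log2 fold change was -0.13 (edgeR adjusted p = 1.13e-06). TFPI had a log2 fold change of 0.63 (edgeR adjusted p = 0.0600) and the protein C receptor gene PROCR 0.57 (edgeR adjusted p = 0.0328), estimates above that of SERPINE2 but neither past the limit. The thrombin receptor genes F2R and F2RL1 had log2 fold changes of -0.09 and 0.03 and did not pass.

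Of 18 other serpins 7 were tested, with 1 raised and 1 lowered, beside 13.5% raised and 13% lowered of all tested genes. SERPINH1, the collagen chaperone HSP47, had 314.6 ± 6.33 CPM in control and 225.2 ± 4.02 CPM in ADP-CM (SD, n = 3 each), which gave a log2 fold change of -0.48 (edgeR adjusted p = 5.53e-26). SERPINA3, the acute-phase antichymotrypsin, had 24, 16 and 32 reads in control and 40, 33 and 106 in ADP-CM. Its log2 fold change of 1.18 rested on ADP-CM replicate 3 and was 0.48 without that library, where its edgeR adjusted p rose from 0.000277 to 0.151. In the alternatives its adjusted p lay between 1.15e-07 and 0.26 (edgeR without a filter and the robust edgeR fit). The fibrinogen gene FGB was also read mainly in that library, with 0, 0 and 0 reads in control and 1, 0 and 14 in ADP-CM. Without ADP-CM replicate 3 the members still numbered 4 raised and 1 lowered.
SERPINB2, SERPINB5 and SERPINB8 lie in a serpin cluster on chromosome 18, between 61144191 and 61687013. Of its other genes, SERPINB7 had 25, 29 and 25 reads in control and 12, 27 and 30 in ADP-CM and did not pass the test. SERPINB3, SERPINB4, SERPINB10 and SERPINB11 had 0 reads in every library, and SERPINB12 and SERPINB13 at most 4 reads. SERPINB3 and SERPINB4 are near-identical copies, so reads that fit both would have been left out of the counts. The 3 members of the cluster stood at 54.2 (SERPINB5), 6.38 (SERPINB8) and 0.395 CPM per kb (SERPINB2) in control. SERPINB5 was raised, SERPINB8 was lowered and SERPINB2 was not past the threshold, with an interval that contains the whole interval of SERPINB5. Whether these changes differ from each other was not tested.

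The 5 genes whose log2 CPM over the 6 libraries was most like that of PLAU, by Pearson's r among 12136 other genes with a mean of at least 1 CPM, were HOXB9, SOS1, HN1L, COG3 and GALNT3. Their r with PLAU was 0.991 to 0.997 and their log2 fold changes 0.04 to 0.40. Of these candidates 835 had an r above 0.9, and since the 6 points fall into 2 groups these values mostly restate the difference between the groups.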

How the data were processed

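RNA of 6 RL95-2 libraries, 3 control and 3 ADP-CM by their titles, had been prepared with a stranded mRNA kit and sequenced. The deposited values are, for each RefSeq gene, the raw count of reads assigned by HTSeq after alignment with TopHat2 to hg19, as the submitters' notes and the study's methods name them. Versions and the strand setting are not given in the sources used here. HTSeq leaves out reads that align to several places, so near-identical genes are undercounted. The 5 summary lines that name no gene were kept out of library sizes. Among them, uniquely aligned reads on no gene were 10.3% and 11.5% of all tallied reads in control and ADP-CM.

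In R 4.3.3, counts were filtered with filterByExpr, scaled by TMM and compared with the quasi-likelihood test of edgeR 4.0.16, adjusted by Benjamini-Hochberg over 12663 genes. Standard errors are the log2 fold change divided by the square root of F. The test was tried on simulated data drawn from the fit to these counts, with added changes of 1.5-fold or more. That trial does not bear on smaller changes such as those of the members. Replicates differed by more than counting noise, with a chi-square per degree of freedom of 1.22 to 2.01 between libraries of a group. The excess was small, with a common coefficient of variation beyond counting noise of 1.67% in edgeR. Positions and transcript lengths came from GENCODE release 44 lifted to GRCh37, and promoters from RefSeq on GRCh38.p14. DESeq2 1.42.0, other scalings and filters, the replicate number as a term and each library left out were the alternatives.

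All members were named. Of each other list, up to 6 called genes with the smallest adjusted p and every gene past 1.5-fold were named, while further genes were chosen after their values were seen. One gene of the plasminogen activation list is not reported here and was left out of the list's counts and figures. The members and lists were chosen with earlier results of these data known.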

Additional observations from a re-analysis of the deposited data

Results flagged for a closer look

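Outside the reads counted on genes, uniquely aligned reads on no gene made up 11.55% ± 0.0321 of the tallied reads in ADP-CM, above the 10.26% ± 0.0551 in control (SD, n = 3 each). The tally held the gene counts and all 5 summary lines, among them reads that align to several places. The part of this share in the values of the plasminogen activator system was not tested.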

How the results depend on the processing

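All calls of PLAU, SERPINE2, SERPINB8 and F3 held in the 13 alternative fits, and SERPINB5 lost its call in 2 of them. Leaving out each library gave 3 to 4 members raised and 1 lowered. With the limit on the adjusted p at 0.05, PLAT joined the lowered members (2), and with a fold change over 1.5 required there were 0 raised and 0 lowered. SERPINB2, which was never called, had a log2 fold change of -0.030 (without control replicate 1) to 0.50 (without control replicate 2) when libraries were left out. DESeq2 called 1124 genes raised and 1015 lowered, against 1707 and 1650 by edgeR, and 95 raised past a fold change of 1.5 against 144. Of the coagulation genes 1 was raised with no filter on low counts (FGB), and 0 to 1 when libraries were left out (LMAN1, without ADP-CM replicate 3). Of the other serpins 0 were raised with DESeq2 and with the robust edgeR fit, and 0 to 1 when libraries were left out, the call of SERPINA3 being lost in each case. In the replicate block fit, 4 members were raised and 1 lowered, with 1786 and 1716 genes over all, and no call of a member changed. Deviations of same-numbered libraries from their group means correlated at 0.0634, 0.0255 and 0.0918, and each library correlated best with its own number. None was over 0.1, the limit set here, and the libraries were taken to share a number only. This limit cannot show whether the numbers mark a shared culture or batch. The depth limits PLAUR, SERPINB2 and THBD most, with at most 105, 18 and 5 reads in any library.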
